A study of Caenorhabditis elegans with 9 samples.

Results

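The 10 genes described here encode the 5 superoxide dismutases (sod-1 to sod-5), the 3 catalases (ctl-1, ctl-2 and ctl-3) and the peroxiredoxins prdx-2 and prdx-3 of the nematode Caenorhabditis elegans. Members were taken by name, and a gene counted as measured where a probe set, the group of short oligonucleotides that reads 1 transcript on an Affymetrix array, was annotated to it alone. This held for 8 of the 10 genes, with 8 probe sets among the 22625 of the array; 17118 genes in all had such a probe set. The catalases ctl-1 and ctl-3 were read only through 1 probe set that they share, and it is given beside the others. The probe sets of sod-1 and ctl-2, like the shared one, belong to a class that can also bind related transcripts.

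Superoxide dismutases turn superoxide into hydrogen peroxide, and catalases and peroxiredoxins remove hydrogen peroxide, the latter with electrons from thioredoxin. The enzymes are divided by compartment and metal: copper/zinc enzymes work in the cytosol and outside the cell, and manganese enzymes in mitochondria, while the worm has catalases of the cytosol and of the peroxisome. Several of these genes are known in adult worms as targets of DAF-16/FOXO, the transcription factor held back by insulin-like signalling.

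Total RNA of mixed-stage embryos of XX worms was hybridised to 9 arrays, with 3 for each group. The control was wild type: N2 mothers were kept for 96 hours on bacteria that carried L4440, an RNAi vector with no insert. For smo-1 RNAi, N2 mothers were fed bacteria expressing double-stranded RNA to smo-1, the gene of the ubiquitin-like modifier SUMO. The sdc-2(y93)+RNAi embryos came from mothers with the y93 allele of sdc-2 on bacteria labelled as expressing sdc-2 RNAi; SDC-2 recruits the dosage compensation complex, which lowers expression from X in hermaphrodites. In the latter groups 72 hours on RNAi plates followed 24 hours on HB101, and the temperature was 20 °C throughout. This schedule differs from the 96 hours of control, so it cannot be told apart from the perturbation in either comparison with control. The growth description names the smo-1 plasmid alone for both RNAi groups, so the labels do not settle which RNAi the sdc-2(y93) group received. The smo-1 messenger was also lower than control in that group, by the values given below. Feeding RNAi is not limited to a single tissue, reaches the mother's germ line and is known to be weak in neurons, and the mix of ages in each embryo preparation is not given. Whether replicates were separate cultures is not stated in the labels, and p-values therefore reflect the spread of these samples only, which may be technical.

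Levels are on the log2 scale of robust multi-array averaging (RMA). Array medians lay between 6.51 and 6.72 and did not overlap between groups. They were 6.556 to 6.599 in control, 6.698 to 6.72 in smo-1 RNAi and 6.511 to 6.546 in the sdc-2(y93)+RNAi group. The deposited values were used with this offset in place unless another scaling is named. The smo-1 messenger averaged 11.93 ± 0.13 (SD, n = 3) over the control arrays, 8.26 ± 0.38 over the smo-1 RNAi arrays and 10.88 ± 0.12 over the sdc-2(y93)+RNAi arrays. It was lower than control by -3.67 ± 0.17 (log2, SE, limma adjusted p = 6.55e-08) in smo-1 RNAi and by -1.05 ± 0.17 (limma adjusted p = 0.000942) in the sdc-2(y93)+RNAi group. The sdc-2 messenger was at 9.72 ± 0.10, 9.60 ± 0.28 and 9.37 ± 0.25 (n = 3 each) in the same order, and its difference of -0.35 ± 0.16 in the sdc-2(y93)+RNAi group did not pass the test (limma adjusted p = 0.14). Over the mean of the probe sets of sdc-2 it was -0.86 there (adjusted p = 0.000391) and -0.40 in smo-1 RNAi (adjusted p = 0.017), whereas with arrays centred on the brighter autosomal genes (above the median level) it was -0.09 in the sdc-2(y93)+RNAi group, and -0.46 to -0.21 with 1 array left out. The cre hybridisation control read 12.21 to 12.41 on the sdc-2(y93)+RNAi arrays and 4.88 to 5.17 on the other arrays, so array handling and this group cannot be told apart. In bulk RNA, fewer cells of a type and less RNA per cell cannot be told apart either. Precision is limited throughout by the number of arrays.

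In smo-1 RNAi embryos the extracellular dismutase sod-4 rose by 4.51-fold, the inducible mitochondrial dismutase sod-3 by 1.70-fold and the minor cytosolic dismutase sod-5 by 1.498-fold, while the peroxisomal catalase ctl-2 and the main mitochondrial dismutase sod-2 fell. Among embryos of the sdc-2(y93)+RNAi group ctl-2 fell by 2.77-fold, sod-2 and sod-1 fell by less, and sod-4 rose by 1.73-fold. With the deposited values and all arrays, the peroxiredoxins prdx-2 and prdx-3 did not pass the test in any comparison. The plot of member levels shows these values array by array.

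**Figure D1:**
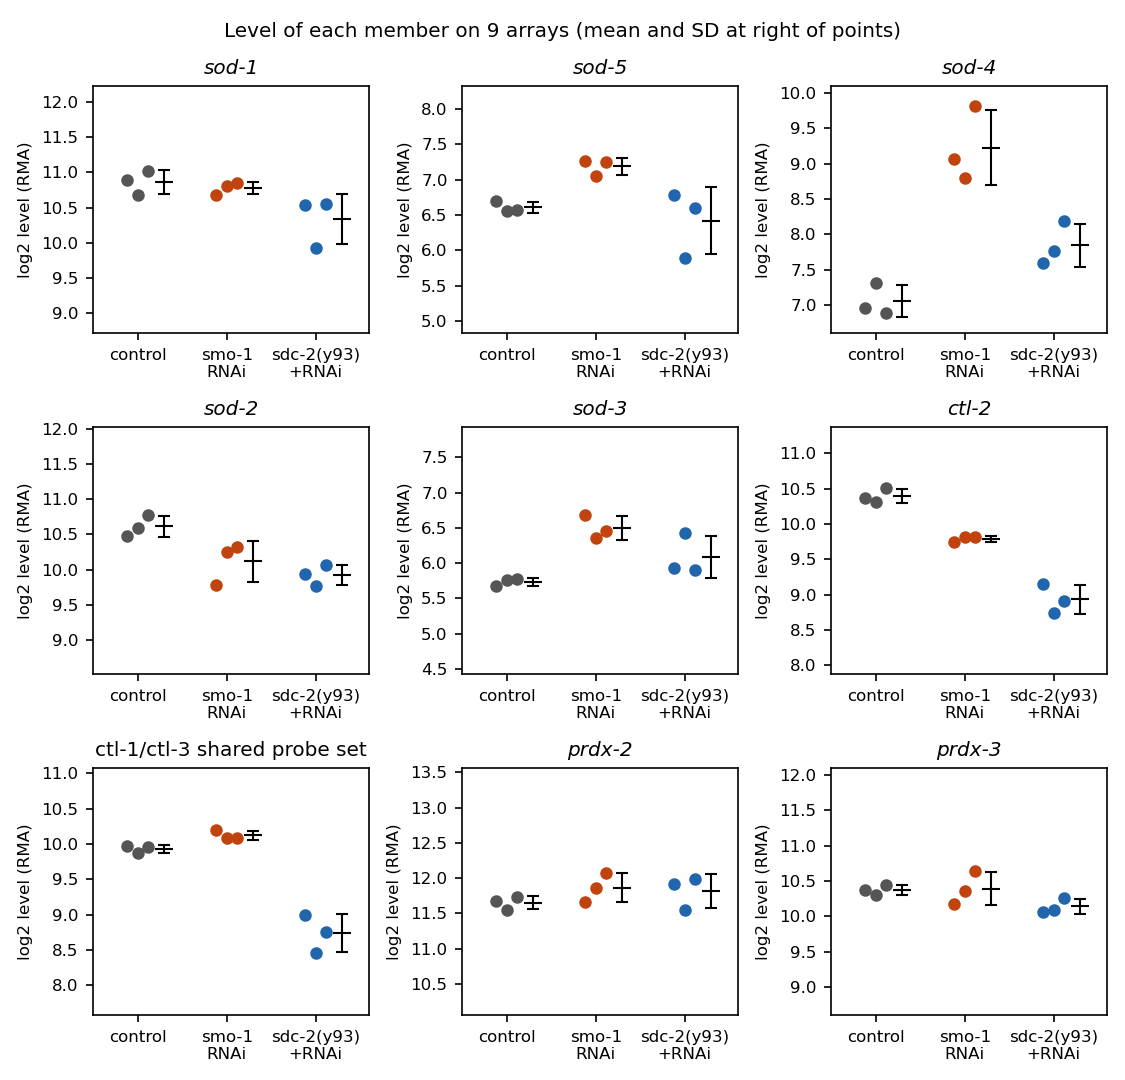
Log2 RMA level (vertical axis, same span in every panel) of the 8 measured genes and of the probe set shared by ctl-1 and ctl-3, in control (grey), smo-1 RNAi (orange) and sdc-2(y93)+RNAi (blue) embryos; each point is 1 array and the bars are the mean and SD of 3 arrays. The sod-4 points of smo-1 RNAi lie at 8.79 to 9.81, above all others of that gene, and the ctl-2 points of the 3 groups form 3 separate levels.

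SOD-1 is the major copper/zinc superoxide dismutase of the cytosol, and its gene (C15F1.7) lies on chromosome II. Its level was 10.90, 10.69 and 11.02 in the control arrays, 10.68, 10.80 and 10.85 in the smo-1 RNAi arrays and 10.53, 9.93 and 10.56 in the sdc-2(y93)+RNAi arrays. The smo-1 RNAi arrays overlapped those of control, whereas all 3 sdc-2(y93)+RNAi arrays lay below, replicate 2 lowest. The difference from control was -0.09 ± 0.16 (log2, SE) in smo-1 RNAi (limma adjusted p = 0.733) and -0.53 ± 0.16 in the sdc-2(y93)+RNAi group, a 1.44-fold lower level (limma adjusted p = 0.034). Without replicate 2 of sdc-2(y93)+RNAi the latter was -0.32, with an adjusted p of 0.0612, and over 21 alternatives its adjusted p ranged from 0.0139 to 0.124, 9 of them losing the call, including those without control replicate 1 or 3 or smo-1 RNAi replicate 2. Set against each other, the perturbed groups differed at sod-1 by 0.44 ± 0.16 (limma adjusted p = 0.0593). This difference passed in 7 of 21 alternatives, among them quantile normalization (0.51, adjusted p = 0.0181) and those without replicate 1 or 3 of sdc-2(y93)+RNAi, and was 0.23 without replicate 2 of that group and at most 0.55 with any other array left out.

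SOD-5 is a second cytosolic copper/zinc dismutase, known as a minor form in well-fed worms, encoded on chromosome II (ZK430.3). The sod-5 level was 6.70, 6.55 and 6.58 in control, 7.27, 7.05 and 7.25 in smo-1 RNAi and 6.78, 5.88 and 6.598 in the sdc-2(y93)+RNAi group. The smo-1 RNAi arrays lay above all other arrays, and the control arrays lay inside the wider range of sdc-2(y93)+RNAi. In smo-1 RNAi embryos sod-5 rose by 0.58 ± 0.19 (log2, SE, limma adjusted p = 0.0321). Of 22 alternatives, 9 lost this call, with adjusted p from 0.000684 to 0.155; they include leaving out any 1 control array, and replicate 1 or 3 of smo-1 RNAi. For sdc-2(y93)+RNAi the difference was -0.19 ± 0.19 (limma adjusted p = 0.564), and it was 0.080 without replicate 2. Set directly against sdc-2(y93)+RNAi, sod-5 was 1.71-fold higher in smo-1 RNAi embryos (0.77 ± 0.19, limma adjusted p = 0.0087), a call that all 22 alternatives kept.

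SOD-4 is the copper/zinc dismutase with a signal sequence, known as the extracellular form, and sod-4 (F55H2.1) lies on chromosome III. Its level was 6.96, 7.31 and 6.89 in control, 9.07, 8.79 and 9.81 in smo-1 RNAi and 7.59, 7.76 and 8.18 in the sdc-2(y93)+RNAi group. The 3 groups did not overlap, with smo-1 RNAi highest and control lowest. The difference from control was 2.17 ± 0.24 (log2, SE, limma adjusted p = 4.28e-05) in smo-1 RNAi and 0.79 ± 0.24 (limma adjusted p = 0.0343) in the sdc-2(y93)+RNAi group. The perturbed groups differed from each other by 1.38 ± 0.24, a 2.61-fold higher level in smo-1 RNAi embryos (limma adjusted p = 0.00111). The smo-1 RNAi value stayed between 1.88 and 2.39 under all 22 alternatives. The sdc-2(y93)+RNAi call was lost in 5 of 22, among them leaving out control replicate 1 or 3 or sdc-2(y93)+RNAi replicate 2 or 3, with adjusted p from 0.00428 to 0.126 over the alternatives.

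The manganese enzymes SOD-2 and SOD-3 share the mitochondrial matrix, SOD-2 as the major form and SOD-3 as the form known for its induction by DAF-16. The sod-2 gene (F10D11.1) lies on chromosome I, and its level was 10.48, 10.59 and 10.77 in control, 9.79, 10.25 and 10.32 in smo-1 RNAi and 9.94, 9.77 and 10.07 in the sdc-2(y93)+RNAi group. Every array of both perturbed groups lay below every control array, and the perturbed groups overlapped each other. The fall was -0.50 ± 0.15 (log2, SE), or 1.41-fold, in smo-1 RNAi (limma adjusted p = 0.0195) and -0.69 ± 0.15, or 1.61-fold, in the sdc-2(y93)+RNAi group (limma adjusted p = 0.00532). The latter call held in all 22 alternatives; the former was lost in 5, including without control replicate 3 (adjusted p = 0.0818) and without smo-1 RNAi replicate 1 (-0.33, adjusted p = 0.0642). The direct difference between the perturbed groups was 0.19 ± 0.15 (95% interval -0.13 to 0.52, limma adjusted p = 0.371). With 1 array left out it ranged from 0.094 (without smo-1 RNAi replicate 3) to 0.36 (without smo-1 RNAi replicate 1, adjusted p = 0.0503).

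The sod-3 gene (C08A9.1) lies on X, alone among the 10, and is the dimmest of the measured members. Its level was 5.67, 5.76 and 5.77 in control, 6.68, 6.36 and 6.46 in smo-1 RNAi and 5.92, 6.43 and 5.91 in the sdc-2(y93)+RNAi group. All perturbed arrays lay above all control arrays, and replicate 2 of sdc-2(y93)+RNAi reached into the range of smo-1 RNAi. Since RMA compresses differences of dim transcripts, these values can understate the change. The difference was 0.77 ± 0.14 (log2, SE, limma adjusted p = 0.00138) in smo-1 RNAi, kept by all 21 alternatives, and 0.35 ± 0.14 (95% interval 0.04 to 0.67, limma adjusted p = 0.103) in the sdc-2(y93)+RNAi group. The latter value was 0.18 without replicate 2 of sdc-2(y93)+RNAi (adjusted p = 0.262), at most 0.44 with any other array left out, and 0.61 centred on the brighter autosomal genes, where it passed (adjusted p = 0.0164). On X, genes brighter than the median level of 6.65 had a median difference of 0.23 in smo-1 RNAi and 0.45 in the sdc-2(y93)+RNAi group over 1380 genes, against -0.24 and -0.18 over 7152 autosomal genes. The mean level of sod-3, 6.11, is below that limit, so it is not one of those 1380. The direct difference of 0.41 ± 0.14 passed the test (limma adjusted p = 0.0433) although arrays overlapped, and 14 of 21 alternatives lost it, with adjusted p from 0.00184 to 0.225; leaving out any 1 array did so except smo-1 RNAi replicate 2 and sdc-2(y93)+RNAi replicate 2.

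The catalase genes lie side by side on chromosome II: ctl-2 (Y54G11A.5), the peroxisomal enzyme, ctl-1 (Y54G11A.6), the cytosolic enzyme, and ctl-3 (Y54G11A.13). The ctl-2 level was 10.37, 10.32 and 10.51 in control, 9.74, 9.82 and 9.82 in smo-1 RNAi and 9.15, 8.74 and 8.91 in the sdc-2(y93)+RNAi group. The 3 groups did not overlap, and control was highest and sdc-2(y93)+RNAi lowest. The fall was -0.61 ± 0.11 (log2, SE), or 1.52-fold, in smo-1 RNAi (limma adjusted p = 0.00124) and -1.47 ± 0.11 in the sdc-2(y93)+RNAi group (limma adjusted p = 1.99e-05). The perturbed groups differed by 0.86 ± 0.11, a 1.82-fold lower level in the sdc-2(y93)+RNAi group (limma adjusted p = 0.000147). No alternative out of 21 ended any of these 3 calls, and only 0.24% of all genes had as low a value as ctl-2 in the sdc-2(y93)+RNAi group. The alternative without probe sets that can bind related transcripts gave no value for ctl-2, whose own probe set is of that class.

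The probe set that ctl-1 and ctl-3 share read 9.97, 9.87 and 9.96 in control, 10.20, 10.09 and 10.08 in smo-1 RNAi and 8.996, 8.45 and 8.75 in the sdc-2(y93)+RNAi group. Its smo-1 RNAi arrays lay just above those of control, by 0.19 ± 0.13 (log2, SE, 95% interval -0.09 to 0.47, limma adjusted p = 0.288 over all probe sets). It fell by 2.30-fold in the sdc-2(y93)+RNAi group (-1.201 ± 0.13, limma adjusted p = 9.84e-05). Of all probe sets, 40.3% passed the test in smo-1 RNAi, 27.1% in sdc-2(y93)+RNAi and 35.3% in the direct comparison. The perturbed groups differed by 1.39 ± 0.13 (limma adjusted p = 1.39e-05), and all 18 alternatives kept both calls. How the 2 genes divide this signal cannot be read from 1 probe set.

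The array also holds 3 manufacturer's control probe sets named for a C. elegans catalase, placed at the 3′ end, the middle and the 5′ end of a transcript whose gene the annotation used here does not name. The 3′ control read 9.09, 8.96 and 8.96 in control, 8.96, 9.28 and 9.21 in smo-1 RNAi and 8.26, 7.79 and 8.08 in the sdc-2(y93)+RNAi group. The middle control read 7.46, 7.25 and 7.43, then 6.59, 6.65 and 6.67, then 6.42, 5.96 and 6.32, and the 5′ control read 6.50, 6.34 and 6.66, then 5.88, 5.75 and 5.73, then 5.75, 5.46 and 5.66. All 3 controls were thus lower in every sdc-2(y93)+RNAi array than in every control array. In smo-1 RNAi embryos the middle and 5′ controls were lower and the 3′ control was not. The 3′ minus 5′ difference was 2.50 ± 0.18 (SD, n = 3) in control, 3.37 ± 0.25 in smo-1 RNAi (exact two-sided permutation p = 0.1) and 2.42 ± 0.09 in the sdc-2(y93)+RNAi group (exact p = 0.6). The 3′ minus middle difference was 1.63 ± 0.09 in control, 2.52 ± 0.13 in smo-1 RNAi and 1.81 ± 0.04 in the sdc-2(y93)+RNAi group, higher by 0.89 and 0.18 (exact p = 0.1 each). With 3 arrays against 3, an exact p cannot go below 0.1. The change of the 3′ minus 5′ difference in smo-1 RNAi was 0.66 for the actin controls and 0.32 for the ubiquitin controls and -0.26 for the GAPDH controls; in the sdc-2(y93)+RNAi group these values were 0.81, 0.34 and 0.52 (exact p = 0.1 each). The part of RNA integrity in the catalase values was not tested.

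**Figure D2:**
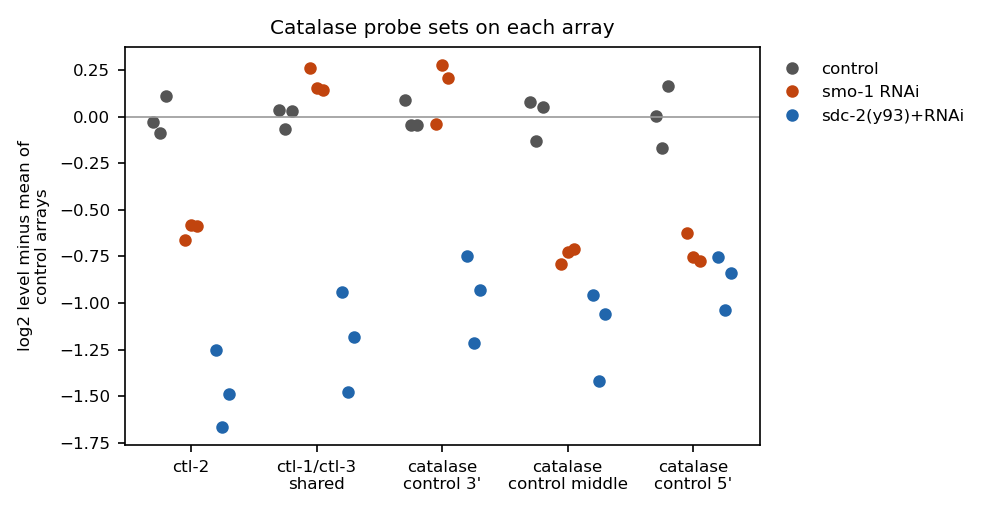
Log2 level minus the mean of the 3 control arrays (vertical axis) of the ctl-2 probe set, the probe set shared by ctl-1 and ctl-3, and the 3′, middle and 5′ catalase control probe sets; each point is 1 array of control (grey), smo-1 RNAi (orange) or sdc-2(y93)+RNAi (blue) embryos. All sdc-2(y93)+RNAi points lie below the control points in all 5 probe sets, while the smo-1 RNAi points lie below them for ctl-2 and the middle and 5′ controls.

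The peroxiredoxins are the peroxidases of the cytosol (PRDX-2) and of mitochondria (PRDX-3). The prdx-2 gene (F09E5.15, chromosome II) read 11.68, 11.55 and 11.73 in control, 11.66, 11.86 and 12.08 in smo-1 RNAi and 11.92, 11.55 and 11.98 in the sdc-2(y93)+RNAi group, and all groups overlapped. Its differences from control were 0.21 ± 0.14 (log2, SE, 95% interval -0.09 to 0.52, limma adjusted p = 0.276) and 0.16 ± 0.14 (-0.14 to 0.47, limma adjusted p = 0.481). With 1 array left out they ranged from 0.11 (without smo-1 RNAi replicate 3) to 0.32 (without smo-1 RNAi replicate 1) and from 0.078 (without sdc-2(y93)+RNAi replicate 3) to 0.30 (without replicate 2). Centred on the brighter autosomal genes they were 0.41 and 0.42 and passed (adjusted p = 0.0145 and 0.0156). The prdx-3 gene (R07E5.2, chromosome III) read 10.37, 10.30 and 10.45, then 10.17, 10.36 and 10.64, then 10.07, 10.09 and 10.26. Its smo-1 RNAi arrays spanned those of control, with a difference of 0.02 ± 0.12 (95% interval -0.25 to 0.29, limma adjusted p = 0.94). The sdc-2(y93)+RNAi arrays of prdx-3 lay just below control, by -0.23 ± 0.12 (95% interval -0.50 to 0.04, limma adjusted p = 0.211). Set directly against sdc-2(y93)+RNAi, prdx-3 differed in smo-1 RNAi by 0.25 ± 0.12 (95% interval -0.02 to 0.52, limma adjusted p = 0.143). This direct difference passed under quantile normalization (0.33, limma adjusted p = 0.0353) and without smo-1 RNAi replicate 1 (0.36, limma adjusted p = 0.0416). These intervals leave room for changes of up to about 0.5 on the log2 scale.

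Counted together, 5 of the 8 measured genes passed the test in smo-1 RNAi embryos, 3 higher and 2 lower. Of all genes tested 39.9% passed in that comparison, 17.8% higher and 22.2% lower, and 60.7% of those above the median level, where all measured members but sod-3 lie. For sdc-2(y93)+RNAi 4 of 8 passed, 1 higher and 3 lower, against 26.5% of all genes (10.9% higher and 15.6% lower) and 47.7% of those above the median level. The members' shares, 62.5% and 50%, were close to those of comparably bright genes. The median difference of the 8 was 0.12 in smo-1 RNAi and -0.21 in the sdc-2(y93)+RNAi group, with medians of -0.0021 and 0.017 over all genes. Arrays did not overlap control for 5 of 8 in smo-1 RNAi (55.1% of all genes) and for 6 of 8 in the sdc-2(y93)+RNAi group (37.8%). Shares of non-overlap are over all genes. They were not taken for genes above the median level alone, where more genes passed the test. In the direct comparison 4 of 8 were higher in smo-1 RNAi embryos (sod-3, sod-4, sod-5 and ctl-2). Of all genes 35.6% passed there, 18.4% higher and 17.2% lower, and 56% of those above the median level. All 8 member differences were above 0 in the deposited values, where the median over all genes was -0.014. Centred on all autosomal genes, prdx-2 was at -0.15 and sod-2 at -0.0057, so the shared sign depends on scaling. Arrays of the perturbed groups did not overlap each other for 4 of 8, against 42.9% of all genes. Both comparisons with control use the same 3 control arrays.

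**Figure D3:**
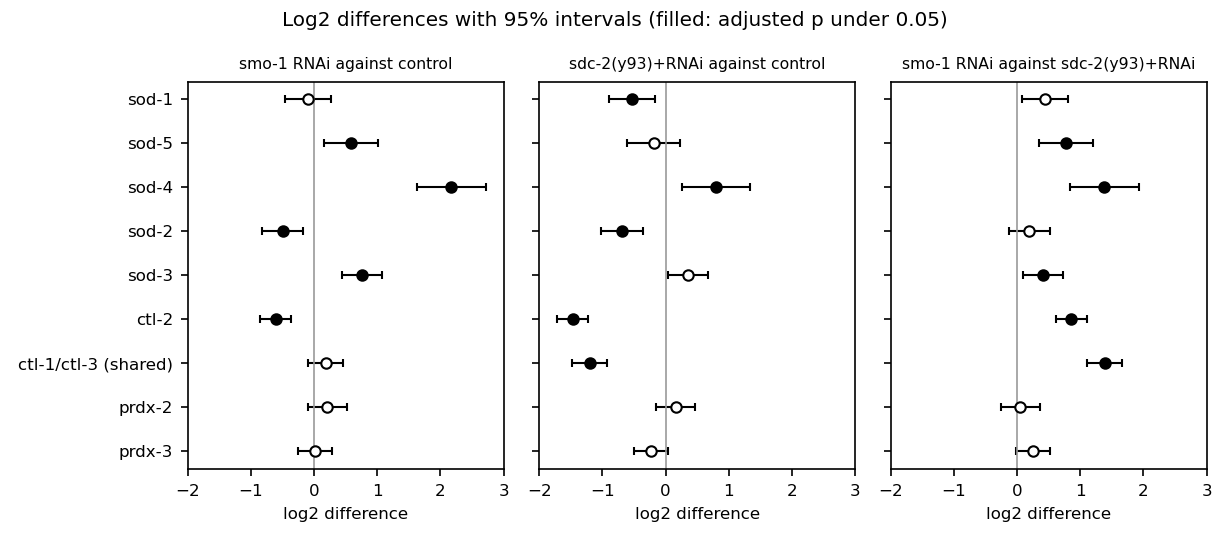
Log2 difference (horizontal axis) with its 95% interval from the limma fit for each member and for the probe set shared by ctl-1 and ctl-3, in smo-1 RNAi against control, sdc-2(y93)+RNAi against control, and smo-1 RNAi against sdc-2(y93)+RNAi; filled points have an adjusted p under 0.05. The sod-4 value of 2.17 is the highest in the first panel and the ctl-2 value of -1.47 the lowest in the second.

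Differences between related members were also taken within single arrays, a measure that centring, which shifts a whole array by 1 amount, leaves as it is; quantile normalization can move it. The pairs were chosen with these values known, 5 pairs in both comparisons, and with an exact two-sided permutation p of 0.1 each, the smallest that 3 arrays against 3 allow, and 0.1 after adjustment over the 10, none could pass the test. The level of sod-3 minus that of sod-2 was higher than in control by 1.26 in smo-1 RNAi and 1.04 in the sdc-2(y93)+RNAi group (log2). For sod-4 minus sod-1 these values were 2.27 and 1.32, and for sod-5 minus sod-1 0.67 and 0.34. They were 0.80 and 0.27 for the shared ctl-1 and ctl-3 probe set minus ctl-2, and 0.20 and 0.39 for prdx-2 minus prdx-3.

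Glutathione peroxidases, thioredoxins, glutaredoxins and the enzymes of glutathione synthesis act beside the members. Of 25 measured genes of 26 listed, 5 were higher and 6 lower in smo-1 RNAi embryos (median -0.01). For this list and the later lists and markers, the share over all genes there was 17.8% higher and 22.2% lower. It was 10.9% and 15.6% in the sdc-2(y93)+RNAi group and 18.4% and 17.2% in the direct comparison. Above the median level 60.7%, 47.7% and 56% of genes passed in either direction. No list was tested as a set. The glutathione peroxidase gpx-3, on X, rose by 2.65 ± 0.14 (log2, SE, limma adjusted p = 1.99e-07) and the thioredoxin trx-3 by 1.101 ± 0.10 (limma adjusted p = 1.02e-05), while gpx-1 fell by 1.05. The sdc-2(y93)+RNAi group had 4 higher and 12 lower (median -0.32, against 0.017 over all genes). There gpx-1 fell by 1.202 (limma adjusted p = 9.3e-05), the thioredoxin trx-4 by 0.83 and the glutaredoxin glrx-10 by 0.75. Set directly against sdc-2(y93)+RNAi, 12 of the 25 were higher and 2 lower in smo-1 RNAi embryos. These balances move with scaling. With arrays centred on the brighter autosomal genes (above the median level), smo-1 RNAi had 9 higher and 3 lower. The sdc-2(y93)+RNAi group then had 7 higher and 6 lower. Centred on all autosomal genes, smo-1 RNAi had 4 higher and 10 lower and the sdc-2(y93)+RNAi group 4 higher and 9 lower. The direct comparison gave 7 higher and 6 lower under the latter centring.

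The list of regulators holds DAF-16 and the insulin-like pathway, SKN-1 and its p38 kinase cascade, and other stress factors, 19 measured of 22. In the sdc-2(y93)+RNAi group 11 were higher and 4 lower (median 0.53); 5 of the 19 are X-linked and all 5 were higher. They include aak-2, a subunit of AMP-activated kinase (1.21 ± 0.10, limma adjusted p = 3.67e-05), and sek-1, the kinase that activates p38 (1.41 ± 0.16, limma adjusted p = 0.000121). Both values depend on the probe set: aak-2 was at 0.58 over the mean of its probe sets (adjusted p = 0.00063), and sek-1 at 0.46 without probe sets that can bind related transcripts (adjusted p = 0.0147). For pdk-1, the kinase upstream of AKT, the brightest probe set gave 1.03, but without probe sets that can bind related transcripts the value was -0.0034 (adjusted p = 0.99). In smo-1 RNAi embryos 6 were higher, 4 of them X-linked, and 3 lower. Among them pqm-1, a zinc-finger factor that acts opposite DAF-16, rose by 1.14 ± 0.10 (limma adjusted p = 8.77e-06) and sgk-1, an X-linked kinase, by 1.12 ± 0.12, while atfs-1, the factor of the mitochondrial unfolded protein response, fell by 0.98. Centred on all autosomal genes, the smo-1 RNAi counts became 5 and 5; centred on the brighter autosomal genes they were 10 higher and 2 lower, and 13 higher and 0 lower in the sdc-2(y93)+RNAi group.

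The list of DAF-16 targets, which leaves out the members, held 12 genes, all measured. Of these, 6 were higher and 1 lower in smo-1 RNAi embryos (median 0.47). The lysozyme lys-7 rose by 2.72 ± 0.24, the metallothionein mtl-1 by 2.65 ± 0.22 and the ferritin ftn-1 by 1.72 ± 0.14 (log2, SE, limma adjusted p = 8.52e-06, 5.45e-06 and 4.02e-06). The probe sets of lys-7 and ftn-1 can bind related transcripts, and lys-7 and mtl-1 were dim in control, at means of 5.13 and 5.14. In the sdc-2(y93)+RNAi group 1 was higher and 3 lower (median -0.08), the glyoxylate cycle enzyme icl-1 by -0.78 and dod-3 by -0.65; for lea-1 the brightest probe set gave -1.66 and the other 0.37. In the direct comparison 6 of 12 were higher in smo-1 RNAi embryos and 0 lower past the limma test, also at an unadjusted p under 0.05. The sdc-2(y93)+RNAi balance turned to 4 higher and 2 lower when centred on the brighter autosomal genes. Of 9 SKN-1 targets, 1 was higher and 4 lower in smo-1 RNAi, and 0 higher (limma, also unadjusted) and 5 lower in the sdc-2(y93)+RNAi group; centred on the brighter autosomal genes the latter had 1 higher and 2 lower. The glutathione transferase gst-10 fell by 1.37 in both (limma adjusted p = 3.91e-05 and 0.000124), nit-1 rose by 1.57 in smo-1 RNAi embryos, and ugt-11 fell there by 0.75. Under sdc-2(y93)+RNAi sdz-8 fell by 0.48 (-0.21, adjusted p = 0.0879, with the latter centring, which also took the call of dod-3, adjusted p = 0.0507), and gcs-1, the first enzyme of glutathione synthesis, gave -0.59, or -0.0092 without probe sets that can bind related transcripts.

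Peroxisome genes, the compartment of CTL-2, numbered 23 measured of 26, with 3 higher and 8 lower in smo-1 RNAi (median -0.22) and 2 higher and 10 lower in the sdc-2(y93)+RNAi group (median -0.28). The thiolase daf-22 fell by 1.26 in the sdc-2(y93)+RNAi group (limma adjusted p = 0.000132), and the transporter pmp-2 fell by 0.91 in smo-1 RNAi and 0.92 in the sdc-2(y93)+RNAi group. In smo-1 RNAi embryos the peroxin prx-19 fell by 0.79 and the dehydrogenase dhs-28, on X, rose by 0.68. The transporter pmp-3 was higher by 0.75 in the sdc-2(y93)+RNAi group, or by 0.25 (adjusted p = 0.103) over the mean of its probe sets. Centred on the brighter autosomal genes, the peroxisome counts were 4 higher and 5 lower, and 4 higher and 4 lower.

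Of 11 genes listed as dual oxidase and peroxidase genes, 2 were higher and 4 lower in smo-1 RNAi, although their median was 0.24. In the sdc-2(y93)+RNAi group 0 were higher (limma, also unadjusted) and 2 lower (median -0.08). The peroxidase skpo-3 rose by 1.13 in smo-1 RNAi, skpo-2 fell by 0.99 and the peroxidasin pxn-2 by 0.92; in the sdc-2(y93)+RNAi group skpo-2 fell by 0.59 and the dual oxidase bli-3 by 0.36 (limma adjusted p = 0.0145, or 0.0604 without control replicate 2). Centred on the brighter autosomal genes, these balances turned to 6 higher and 2 lower, and 5 higher and 1 lower. Of 7 mitochondrial stress genes, 1 was higher (dve-1, 0.47) and 1 lower (ubl-5, -0.50, or -0.30 with an adjusted p of 0.0559 under that centring) in smo-1 RNAi, and 2 higher and 3 lower in the sdc-2(y93)+RNAi group, where the X-linked dve-1 rose by 0.90, ubl-5 fell by 1.15 and the protease clpp-1 by 0.57. The dve-1 call in smo-1 RNAi (limma adjusted p = 0.0274) was lost in 7 of 22 alternatives, with an adjusted p of up to 0.119, among them those without control replicate 1 or 3 or smo-1 RNAi replicate 2 or 3; centred on all autosomal genes the counts were 0 higher and 4 lower. Of 7 measured genes of copper, manganese and iron handling, out of 8, 3 were higher and 1 lower in smo-1 RNAi and 1 higher and 2 lower in the sdc-2(y93)+RNAi group. The copper chaperone cuc-1 fell by 0.59 and by 0.86 (limma adjusted p = 0.0014 and 0.000293). The metal transporter smf-3 rose by 0.56 in smo-1 RNAi, and in the sdc-2(y93)+RNAi group the ferritin ftn-2 fell by 0.73 and the X-linked transporter smf-1 rose by 0.49; centred on the brighter autosomal genes smo-1 RNAi had 6 higher and 1 lower and the latter group 5 higher and 2 lower. The bar plot of gene lists shows the counts of all 8.

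**Figure D4:**
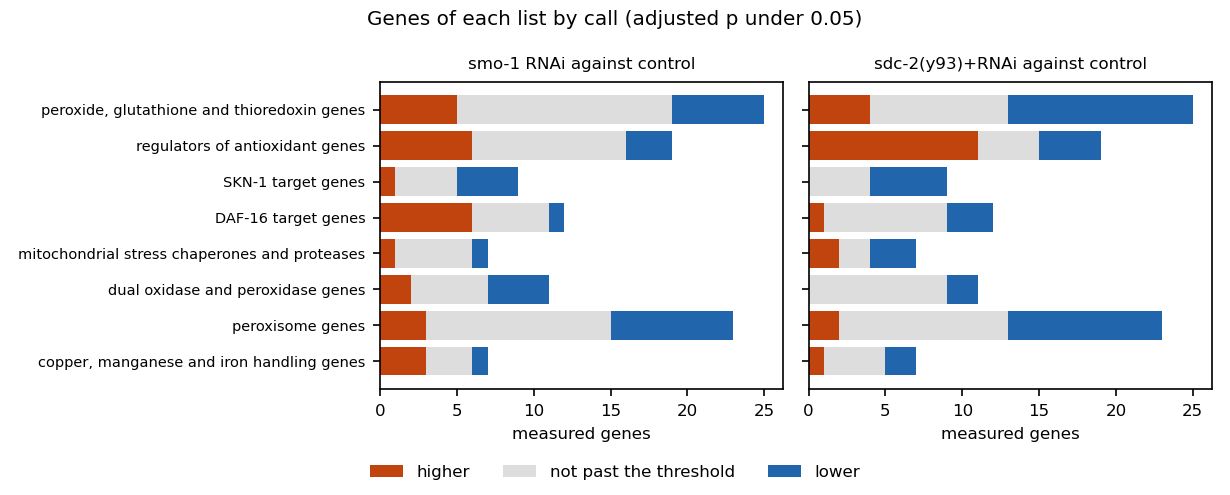
Number of measured genes (horizontal axis) in each of 8 lists that were higher (orange), lower (blue) or not past an adjusted p of 0.05 (grey), in smo-1 RNAi and in the sdc-2(y93)+RNAi group, each against control. The regulators in the sdc-2(y93)+RNAi group hold 11 higher and 4 lower genes, and the peroxide, glutathione and thioredoxin genes there 4 higher and 12 lower.

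Markers of tissues and ages differed between the groups. The mean log2 level of 6 intestine markers was 9.06 to 9.27 over control, 10.12 to 10.17 over smo-1 RNAi and 9.02 to 9.15 over sdc-2(y93)+RNAi arrays. In smo-1 RNAi embryos 4 of the 6 were higher and 1 lower, and in the sdc-2(y93)+RNAi group 1 was higher and 1 lower. Of 7 maternal and germline markers 5 were lower in smo-1 RNAi embryos, with means of 9.16 to 9.44 in control, 8.51 to 8.71 in smo-1 RNAi and 9.21 to 9.62 in sdc-2(y93)+RNAi arrays. Of 7 early zygotic markers 3 were lower in smo-1 RNAi (7.36 to 7.68 in control, 6.79 to 7.004 in smo-1 RNAi, 7.54 to 7.71 in sdc-2(y93)+RNAi), and of 5 epidermis markers 4 were lower (11.03 to 11.08, 10.42 to 10.60, 10.88 to 10.97). Pharynx (4), muscle (5) and neuron (5) markers each had 3 genes higher in smo-1 RNAi embryos, with 1, 2 and 1 lower; in the sdc-2(y93)+RNAi group 3 muscle markers were lower, neuron and epidermis markers each had 1 higher and 2 lower, and 0 pharynx markers passed the limma test (1 at an unadjusted p under 0.05). The 5 measured yolk protein genes of the adult intestine, at means of 5.55 to 5.80, and the 3 sperm markers, at 5.70 to 5.90, did not pass the limma test in either comparison; at an unadjusted p under 0.05, 1 sperm marker (gsp-3, -0.25) in smo-1 RNAi was lower and none of the others differed. The part of the mix of cells and ages in the member values was not tested.

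For the 3 members with the smallest p over the 3 groups (moderated F adjusted p = 7.54e-06 for ctl-2, 0.000101 for sod-4 and 0.00318 for sod-3), the genes nearest in pattern were found by the root mean square difference of centred log2 levels over 9 arrays. The nearest to ctl-2 were VC5.2 (0.11), decr-1.1 (0.12) and ctn-1 (0.12), whose differences in the sdc-2(y93)+RNAi group were -1.38, -1.44 and -1.38. The nearest to sod-4 were oat-1 (0.17), ZK1055.6 (0.19) and R07E5.5 (0.20), at 2.21, 2.04 and 2.01 in smo-1 RNAi embryos; the probe sets of the first pair can bind related transcripts. The nearest to sod-3 were fbxa-162 (0.09), cpb-1 (0.10) and sms-3 (0.10), at 0.82, 0.79 and 0.64 in smo-1 RNAi embryos. They share the arrays and nothing more is read from them.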

How the data were processed

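Per the submitters' processing notes, the authors made the deposited log2 values by RMA in Affymetrix Expression Console, with no version given. RMA corrects background, normalizes by quantiles and summarises probe sets, so a shift shared by all transcripts is removed. The array medians of the deposited values still differed by group. Probe sets were named from the platform annotation and the RefSeq gene table (WBcel235; no coordinates were used). Of 22625 probe sets, 20766 had 1 gene; each of 17118 genes was represented by its brightest such probe set over all 9 arrays. The test was limma 3.58.1 under R 4.3.3 (lmFit and eBayes, 9 arrays, no covariate); it was two-sided, p-values were adjusted by Benjamini-Hochberg across every gene tested, and calls were made at 0.05; the shared catalase probe set was tested in the same way over 22548 probe sets. Steps were tested on simulated data.

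The members, the 8 gene lists and the markers were chosen with earlier results of these data known. The text names all members, smo-1 and sdc-2, up to 3 genes per list and comparison past the threshold in order of adjusted p, and the genes nearest in pattern to 3 members. Besides the list genes marked so in the text, the probe sets of glrx-10, atfs-1, icl-1, dod-3, lea-1, daf-22 and pmp-2 can bind related transcripts. The same holds for those of prx-19, ubl-5, clpp-1, skpo-2, pxn-2, bli-3, ftn-2 and smf-1. Alternatives were other probe sets, fits, scalings, thresholds and each array left out; those for gene lists and the differences within arrays were added once the data had been seen. The reported values use every array.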

Additional observations from a re-analysis of the deposited data

Results flagged for a closer look

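The cre hybridisation control, a transcript spiked into the hybridisation mix that the comparisons do not use, was 7.22 higher (log2) on the sdc-2(y93)+RNAi arrays than on the control arrays. It read 5.05 to 5.17 on the control arrays, 4.88 to 4.99 on the smo-1 RNAi arrays and 12.21 to 12.41 on the sdc-2(y93)+RNAi arrays. Its part in the values of ctl-2, sod-1, sod-2 and sod-4 in sdc-2(y93)+RNAi embryos was not tested.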

How the results depend on the processing

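Of 519 member values under the alternatives, 452 kept direction and side of the threshold, 42 lost a call, 12 gained one and 13 changed sign. Some of the 452 could not have changed direction. Each measured member has 1 probe set of its own, so other probe sets could not change its difference. Leaving out an array of the group not compared could change the adjusted p alone. The number of members past the threshold in smo-1 RNAi, 5 of 8, was 3 at an adjusted p of 0.01 and 3 with a fold of at least 1.5, and 3 to 5 with 1 array left out (3 without control replicate 3 or smo-1 RNAi replicate 1). In sdc-2(y93)+RNAi embryos it was 4 of 8, but 2 of the 6 members left without probe sets that can bind related transcripts, 2 at an adjusted p of 0.01, 5 (3 higher, 2 lower) centred on the brighter autosomal genes, and 2 to 4 with 1 array left out (2 without control replicate 1 or 3 or sdc-2(y93)+RNAi replicate 2). In the direct comparison, 4 of 8, it was 3 to 5. Correlations of same-numbered arrays ranged from -0.22 to 0.24. Without the same values for differently numbered arrays, they do not settle whether the numbers pair the samples. Replicate 3 was the highest of its group for 6 of 8 members in control, 5 in smo-1 RNAi and 5 in sdc-2(y93)+RNAi. Replicate 2 was the lowest for 5, 3 and 5, although replicate 1 was the lowest for 5 in smo-1 RNAi. With the replicate number as a block in limma, 5, 4 and 4 members passed. In the direct comparison sod-3 was then lost (adjusted p = 0.0605) and sod-1 gained (0.0318).

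Sign changes were in members that had not passed the test. In smo-1 RNAi, prdx-3 was -0.11 when centred on autosomal genes, and from -0.11 (without smo-1 RNAi replicate 3) to 0.13 with 1 array left out (-0.019 without control replicate 2), and sod-1 was 0.11 when centred on autosomal genes above the median level. In sdc-2(y93)+RNAi, the latter centring gave 0.074 for sod-5 and 0.030 for prdx-3, and with 1 array left out sod-5 ranged from -0.37 to 0.080 (without replicate 2). In the direct comparison prdx-2 was -0.041 with array weights, -0.15 and -0.010 under the centrings, and -0.084 (without sdc-2(y93)+RNAi replicate 2) to 0.15 with 1 array left out (-0.053 without smo-1 RNAi replicate 3), and sod-2 was -0.0057 when centred on autosomal genes. Among other named genes, the sdc-2 messenger in smo-1 RNAi was 0.081 under the above-median centring and -0.25 to 0.026 with 1 array left out (0.026 without smo-1 RNAi replicate 2), and without related-transcript probe sets pdk-1 was -0.0034 and lea-1 0.37 in sdc-2(y93)+RNAi. Beyond the 2 probe set changes, whose construction shows the cause, the cause was not tested.

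With arrays centred on the brighter autosomal genes (those above the median level) the median gene shifted by 0.20 in smo-1 RNAi and 0.26 in sdc-2(y93)+RNAi, and prdx-2 passed in both (0.41 and 0.42), sod-3 passed in sdc-2(y93)+RNAi (0.61), sod-1 lost its call there (adjusted p = 0.109) and sod-2 lost its call in smo-1 RNAi (adjusted p = 0.0839). Centring on all autosomal genes moved it by -0.13 and 0.07. Asking a fold of at least 1.5 ended, among named genes other than members, the calls of sdz-8, smf-1, clpp-1 and bli-3 in sdc-2(y93)+RNAi and of ubl-5, smf-3 and dve-1 in smo-1 RNAi. The number of arrays limits every value, and among the members dim signal limits those of sod-3 and sod-5.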
